A study of Mus musculus with 18 samples.

Results

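The replication-dependent histone genes supply the proteins that package newly copied DNA. They are taken here as the genes whose symbol begins with Hist1h, Hist2h, Hist3h or Hist4, and all 69 genes that match were measured, of 20878 genes in all. Expression was measured in 18 subcutaneous tumors of K7M2, a mouse osteosarcoma line of Balb/c origin, by sequencing of ribo-depleted total RNA. The K7M2 cells had been transduced by lentivirus with a control shRNA (CT tumors) or with an shRNA against Atrx (KD tumors), and 500000 cells were grafted per mouse. Hosts were Balb/c mice, which are syngeneic and immunocompetent, or NSG mice (NOD.Cg-Prkdc scid Il2rg tm1Wjl/SzJ), which lack T, B and NK cells. Hosts are described as females 6 to 8 weeks old. There were 4 CT and 4 KD tumors from Balb/c mice and 5 CT and 5 KD tumors from NSG mice, each from a different animal and named here by mouse number. Whole cages were assigned to one kind of cells, so cage and knock-down cannot be told apart. Tumors contain both K7M2 cells and host cells, and fewer cells of a type cannot be told apart from less RNA per cell.

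DNA in the nucleus is wound around octamers that hold H2A-H2B dimers and an H3-H4 tetramer, and the linker histone H1 binds where DNA enters and leaves. The genes counted here are clustered, mostly free of introns, and transcribed mainly in S phase. Their mRNAs end in a short stem-loop in place of a poly(A) tail, so they are well captured by total RNA libraries and poorly by poly(A) selection. The protein Slbp binds this stem-loop and the U7 particle directs the cut behind it. Atrx, the gene targeted by the shRNA, works with Daxx to deposit H3.3. This is a replication-independent histone variant, made from other genes and not only in S phase.

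The stem-loop is the feature that unites the class, and it is shown here as the end that takes the place of a poly(A) tail. It was searched in reference transcripts (GENCODE vM21, build GRCm38, the same as mm10) by its usual consensus. This was a perfect stem of 6 base pairs around a loop of 4 bases. The first arm had to read GG, then only C or T, and to end in T, so that the second arm closed with CC. Other genes counted with a match in any transcript, and members only in the transcript that best covered the annotated RNA. It was found in 45 of the 69 members (65.2%) and in 0.306% of the other 55271 genes. By class, it was found in 4 of 6 H1, 11 of 19 H2A, 9 of 19 H2B, 9 of 12 H3 and 12 of 13 H4 genes. In 43 of the 45 the annotated RNA ended 4 to 7 nt after it. No match says only that these letters were not in the reference transcript of that gene. Some of these transcripts hold only part of the annotated RNA, such as 77.3% of its length for Hist2h2bb and 88.9% for Hist1h2ba. The counts therefore do not say which members lack a stem-loop. There were 8 versions of the 16 bases, and the stem of the H4 genes differed from that of the other classes. Stem and loop are in capitals, with 5 bases on each side as the RNA reads.
Hist1h2ad (chr13:23574890-23574915, plus strand): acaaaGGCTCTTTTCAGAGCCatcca
Hist1h2bf (chr13:23573760-23573785, minus strand): ccaaaGGCTCTTTTCAGAGCCaccta
Hist1h3e (chr13:23561898-23561923, minus strand): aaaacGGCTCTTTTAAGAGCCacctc
Hist2h2ac (chr3:96220413-96220438, minus strand): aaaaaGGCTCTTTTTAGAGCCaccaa
Hist1h4d (chr13:23581945-23581970, plus strand): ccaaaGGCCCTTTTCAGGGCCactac
Hist1h4b (chr13:23757361-23757386, plus strand): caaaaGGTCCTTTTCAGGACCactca
Hist1h2ad and Hist1h2bf carried the same 16 bases as Hist1h1c, Hist1h1d, Hist1h1e and many H2A, H2B and H3 genes. The 16 bases of Hist1h3e were also those of Hist1h3c, Hist1h3f, Hist1h2bb, Hist1h2bk and Hist1h1t, and those of Hist1h4d were shared with 6 other H4 genes including Hist4h4. None was found in the reference transcript of Hist1h2ba.

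In these tumors the class was abundant. The values were deposited as log2(FPKM + 1), where FPKM counts fragments relative to transcript length and library size, and levels are given in FPKM, which is already per length. Of the 69 members, 42 had a mean of at least 100 FPKM over the 18 tumors, 16 were among the top 1% of all genes, 18 had a mean under 25 FPKM and 62 were above 0 in every tumor. Their share of all fragments ran from 0.507% to 1.17% per tumor. H4 genes gave 31.6% of the summed histone FPKM, H2B genes 22.9%, H3 genes 16.5%, H1 genes 15.3% and H2A genes 13.7%.

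The genes lay in 4 places on mm10. The Hist1 group held 55 genes on chromosome 13, 54 of them between 21715713 and 23934913 and Hist1h2al far from the others at chr13:51200084-51203066. The Hist2 group held 10 genes on chr3:96219916-96270192, the Hist3 group 3 genes on chr11:58948911-58955192, and Hist4h4 stood alone at chr6:136803993-136804431. In 13 places an H2A and an H2B gene stood head to head, with 167 to 305 nt between their annotated starts, and every head-to-head pair closer than 400 nt joined an H2A to an H2B gene.

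Among the linker histone genes, Hist1h1d, Hist1h1c and Hist1h1e were highest, with means over all tumors of 671, 658 and 635 FPKM. Hist1h1e was the steadiest of the 3, with a mean of 574 ± 89.5 FPKM (SD, n = 4) in Balb/c CT and 714 ± 87.9 FPKM (SD, n = 5) in NSG KD tumors. Hist1h1a, an H1 gene of proliferating tissues, had a mean of 392 FPKM and spread from 175 FPKM in Balb/c KD mouse 56 to 672 FPKM in Balb/c KD mouse 59. Hist1h1t, the linker histone of the testis, did not exceed 0.43 FPKM in any tumor.

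Among the H2A genes, Hist2h2ac led with a mean of 599.6 FPKM, followed by Hist3h2a with 315 and Hist1h2ak with 304 FPKM. Hist1h2aa, the testis H2A, stayed at or below 0.79 FPKM in every tumor.

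Among the H2B genes, Hist2h2bb was the highest of all 69 members. Its level was 1256, 794, 1247 and 1016 FPKM in Balb/c CT mice 41, 43, 44 and 45, and 836, 1493, 1679 and 1309 FPKM in Balb/c KD mice 56, 58, 59 and 60. In NSG CT mice 1 to 5 it was 1563, 1153, 859, 1742 and 1611 FPKM, and in NSG KD mice 26 to 30 it was 1776, 1071, 1543, 1410.0 and 1506 FPKM. All 4 groups overlapped, and the lowest tumor of each group, mouse 43, 56, 3 or 27, was also the lowest of its group in the mean over all members. Hist1h2bb and Hist1h2be followed with 437 and 381 FPKM, and Hist1h2bc, on the other strand from Hist1h2ac, had 312 FPKM. Hist2h2be, known for its expression in olfactory neurons, had only 2.59 FPKM and the smallest coefficient of variation of all members (12.2%), with a range from 2.04 to 3.53 FPKM.

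Among the core H3 genes, Hist1h3e (636 FPKM), Hist1h3c (428 FPKM) and Hist1h3a (300.3 FPKM) were highest. Hist1h3e ran from 318 FPKM in Balb/c KD mouse 56 to 920.3 FPKM in NSG KD mouse 26. Among the H4 genes, which encode a nearly invariant protein, Hist1h4d (882 FPKM), Hist4h4 (859 FPKM) and Hist1h4h (641 FPKM) were highest. Hist1h4d varied little, with a coefficient of variation of 14.4% over the 18 tumors against 28.0% for Hist4h4. Its highest value, 1014 FPKM, was the same in NSG CT mouse 5 and NSG KD mouse 26. Its annotated RNA has 368 nt, and the authors removed PCR duplicates. The part of that step in the level and spread of short, abundant RNAs was not tested.

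**Figure D1:**
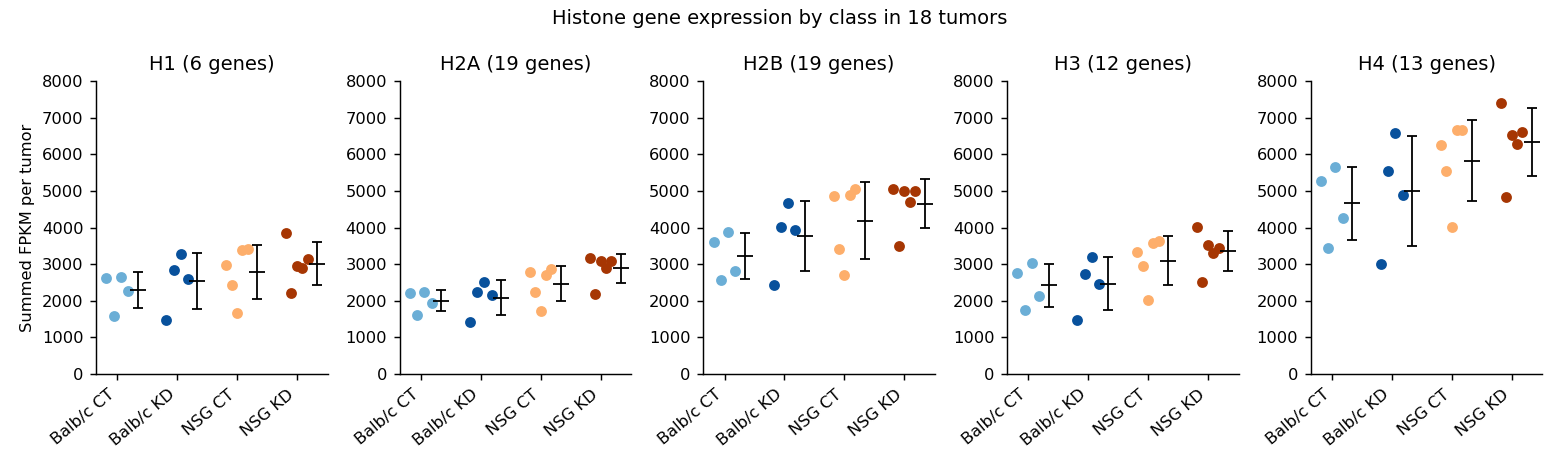
Summed FPKM of each histone class per tumor (vertical axis, linear from 0) for the 4 groups, with 1 point per tumor and the mean ± SD beside it. H4 is the highest class in every group, groups overlap in every class, and the lowest H4 point is Balb/c KD mouse 56 at 2997 FPKM.

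The levels of several near-identical genes are uncertain. The study removed reads with a mapping quality under 20, and the aligner gives such a quality to a read that maps to several places. Windows of 75 nt, the read length, were compared with all reference transcripts of other loci. In 10 members at least 90% of the windows also occurred elsewhere, and these had a median level of 1.63 FPKM, against 359 FPKM for the 8 members in which no window did. Hist1h2ap and Hist1h2ao, Hist1h2bq and Hist1h2br, Hist1h4m and Hist1h4n, Hist2h2aa1 and Hist2h2aa2, and Hist2h3c1 and Hist2h3c2 shared from 89.0% to 100% of their windows, and had means between 0.564 and 5.85 FPKM. The highest member, Hist2h2bb, and Hist4h4 shared no window, and Hist1h4d, between them in level, shared 13.3%. For Hist2h2bb only 77.3% of the annotated length could be compared. Hist1h1t, Hist1h2aa and Hist2h2be, which were low, shared no window either. Hist1h3h had 247 FPKM with 93.5% of its windows shared. What part of any low level comes from lost reads was not tested.

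The depth of the libraries was estimated at 15150000 to 25250000 fragments. T and NK cell markers were near 0 in NSG and present in Balb/c tumors, with a mean log2(FPKM + 1) of 0.169 to 0.508 against 2.15 to 2.86 for T cells and of 0.0336 to 0.145 against 2.54 to 4.35 for NK cells. Osteoblastic markers overlapped between all groups (3.14 to 3.63), as did B cell markers (0.349 to 0.764). Although female mice are stated, Eif2s3y, a Y-linked gene, was 5.64 to 14.4 FPKM in all 10 NSG tumors and at 0 in all 8 Balb/c tumors, so strain, immune state and this difference cannot be told apart in any comparison of hosts. For the knock-down itself, the paper reports by western blot that ATRX protein was extinguished in the cell lines. Atrx was 13.4, 26.0, 10.3 and 20.7 FPKM in the Balb/c CT and 21.5, 7.88, 9.11 and 17.3 FPKM in the Balb/c KD tumors, so that the groups overlapped, and a lower level was not shown there (log2 difference −0.34 ± 0.36 SE, adjusted p = 0.999 by limma, and −0.57 to −0.13 without 1 tumor). That difference was −0.27 ± 0.18 SE with the length trend removed (limma adjusted p = 0.999) and −0.66 ± 0.28 SE with library weights (limma adjusted p = 0.390). In NSG tumors Atrx was 16.2, 11.6, 24.4, 15.1 and 20.5 FPKM with the control and 8.42, 16.4, 8.59, 8.88 and 8.59 FPKM with the Atrx shRNA, with mouse 27 inside the control range (−0.74 ± 0.22 SE, limma adjusted p = 0.0610). Its limma adjusted p was 0.0268 to 0.153 without 1 tumor, lowest without mouse 27 and 0.0400 without mouse 2, 0.0108 with the length trend removed (−0.65 ± 0.12 SE) and 0.000976 with library weights.

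The members varied together from tumor to tumor. Of the 51 members with at least 25 FPKM, 48 had a Pearson correlation of at least 0.8 with the mean of the other members over the 18 tumors, a description only, since all points share their libraries. The exceptions were Hist1h2ah (0.76), Hist1h2af (0.60) and Hist1h3d (0.39). At lower levels, Hist1h2ad (−0.36) and Hist1h2bf (−0.25) had negative correlations over the tumors of both hosts pooled, and their levels differed between hosts. Within groups they did not run against the rest in this way. Both were lowest in NSG CT mouse 3, NSG KD mouse 27 and Balb/c KD mouse 56, as was the mean of all members. In Balb/c CT tumors both were lowest in mouse 45, and that mean in mouse 43.

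The common movement ran beside a trend of each library with transcript length. Member RNAs are short, with a median annotated length of 487 nt. The slope of a tumor's deviations on log2 transcript length, computed without the members, ran from −0.127 to 0.176, and it was 0.0880 or more in mice 43, 45, 56, 60, 3 and 27. The mean log2(FPKM + 1) of the 69 members was 5.60 to 6.18 in these 6 tumors and 6.24 to 6.72 in the other 12. Over 18 tumors the slope and this mean had a Pearson r of −0.83 and a Spearman rho of −0.62, and r was −0.74 without the 2 tumors of the most distant slopes. Within hosts r was −0.91 over 8 Balb/c and −0.74 over 10 NSG tumors, but in NSG it turned to 0.25 without 2 tumors, so there it rests on them. The mean slope was 0.0483 ± 0.111 (SD, n = 4) in Balb/c CT, 0.0223 ± 0.137 (SD, n = 4) in Balb/c KD, −0.0401 ± 0.0795 (SD, n = 5) in NSG CT and −0.0164 ± 0.0704 (SD, n = 5) in NSG KD tumors, with all ranges overlapping. The mean of the 26 genes of S phase and DNA replication had an r with the histone mean of 0.33 over 18 tumors (rho 0.29, and r 0.51 without 2 tumors), 0.86 over the 8 Balb/c (rho 0.64, r 0.54 without 2) and 0.46 over the 10 NSG tumors (rho 0.58, r 0.55 without 2). These are descriptions over tumors that share their libraries between both measures. The part of this trend in the comparisons that follow was not tested, and values with the trend removed are given where this moves them.

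**Figure D2:**
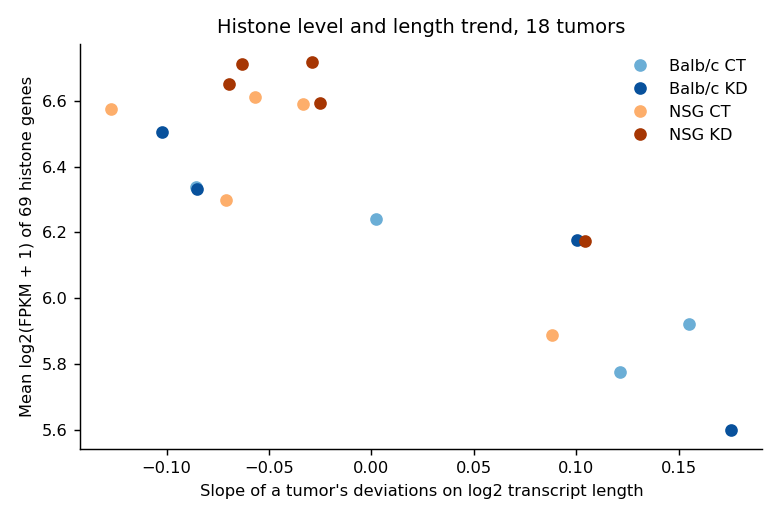
Mean log2(FPKM + 1) of the 69 histone genes (vertical axis) against the slope of each tumor's deviations on log2 transcript length (horizontal axis), 1 point per tumor, colored by group. The 6 tumors with a slope of 0.0880 or more have the lowest means, 5.60 to 6.18.

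The first question of the design was whether the knock-down changed histone genes in immunocompetent hosts. Each comparison was a limma fit on log2(FPKM + 1) over all genes, and a gene was called at an adjusted p under 0.05 with a fold of at least 2. In Balb/c mice no histone gene was called by limma, where 0.0068% of the 14701 genes tested were. At an unadjusted p under 0.05, 1 member was higher in KD and 0 were lower, against 1.72% of all genes higher and 2.42% lower. The median log2 difference of the 69 members was 0.07, beside −0.00321 over all genes, and by class it was 0.08 for H1, 0.03 for H2A, 0.14 for H2B, 0.02 for H3 and 0.01 for H4. The member at an unadjusted p under 0.05 was Hist1h2ap, one of the near-identical copies, with means of 0.55 and 1.09 FPKM (log2 difference 0.47 ± 0.21 SE, adjusted p = 0.999).

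The next smallest p in Balb/c mice belonged to the Hist3 pair Hist3h2bb-ps, annotated as a pseudogene, and Hist3h2ba. Hist3h2ba was 7.01, 8.32, 8.30 and 5.83 FPKM in CT and 9.96, 7.42, 9.35 and 17.5 FPKM in KD tumors, a difference of 0.47 ± 0.24 SE, with overlap and 1 high tumor, mouse 60. Hist3h2bb-ps differed by 0.54 ± 0.26 SE and was also highest in mouse 60. In the other direction, Hist1h2bq (−0.39 ± 0.27 SE), Hist1h2ac and Hist1h2af had the smallest p. Hist1h2af was 87.6 ± 11.03 FPKM (SD, n = 4) in CT and 79.5 ± 20.2 FPKM (SD, n = 4) in KD tumors, and Hist1h2ac 159 ± 20.4 and 144 ± 25.4 FPKM. Leaving out 1 tumor at a time moved the median of the members between −0.06 (without mouse 59) and 0.27 (without mouse 56), and it was also below 0 without mouse 43 or mouse 58. With the length trend removed it was 0.01.

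The same question in NSG mice gave no called member either, where 0.464% of 14654 genes were called. Differences of the 69 members ran from −0.63 to 0.67, all short of the fold of 2 that a call needs. At an unadjusted p under 0.05, 7 members were higher and 2 lower in KD tumors, against 13.8% of all genes higher and 12.5% lower. The differences leaned one way: 63 of the 69 members had a positive log2 difference, against 7293 of 14654 genes. Members varied together from tumor to tumor, so these are not 69 separate observations. Their mean log2(FPKM + 1) per tumor overlapped, from 5.89 to 6.61 in CT and from 6.17 to 6.72 in KD tumors. The median difference of the members was 0.19 beside −0.00141 over all genes, and class medians ran from 0.13 for H1 to 0.23 for H2A. With the length trend removed the median was 0.25 and 32 members were higher at an unadjusted p under 0.05, against 15.6% of all genes, and still none was called. Without removing the trend, leaving out mouse 27 raised the 7 higher members to 18, against 13.7% of all genes, and the median to 0.29. Leaving out mouse 2 lowered the count to 2, also against 13.7%, and leaving out mouse 3 gave 4, against 17.9%, with a median of 0.05.

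The 3 members with the smallest p among those higher in NSG KD tumors were of the H2A class. Hist1h2af was 86.3, 101.6, 82.1, 83.6 and 96.6 FPKM in CT and 108, 101.7, 103, 103 and 111 FPKM in KD tumors. The highest CT and the lowest KD tumor were almost level, and the difference was 0.23 ± 0.08 SE (adjusted p = 0.109 by limma). Hist2h2aa2 (0.49 ± 0.18 SE) and Hist1h2ao (0.57 ± 0.21 SE) are near-identical copies with means under 2 FPKM. Lower in KD were Hist1h2ba (−0.63 ± 0.17 SE), Hist1h3d (−0.55 ± 0.24 SE) and Hist1h2ad (−0.47), of which only the first 2 were under an unadjusted p of 0.05.

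Hist1h2ba came closest to a call (adjusted p = 0.0502 by limma, with a range of 0.00166 to 0.0733 over the alternatives with every tumor and of 0.0142 to 0.137 without 1 tumor), and it was called in none of them. Without 1 tumor its difference was −0.75 to −0.53, short of the fold of 2, so no adjusted p could have made it a call there. The Y-linked genes, at 0 or nearly so in Balb/c tumors, moved the same way between these groups: Eif2s3y was 13.3 ± 1.42 FPKM (SD, n = 5) in NSG CT and 7.99 ± 2.27 FPKM (SD, n = 5) in NSG KD tumors (−0.70 ± 0.16 SE, limma adjusted p = 0.0306), and Ddx3y, Uty and Kdm5d differed by −0.50, −0.88 and −0.49. Their part in the value of Hist1h2ba was not tested.

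The effect of the knock-down was then compared between hosts, as the KD minus CT difference in Balb/c mice less that in NSG mice. No member was called by limma at an adjusted p under 0.05, and 0% of 14803 genes were. At an unadjusted p under 0.05 there were 0 members, against 10.3% of all genes. The median over the members was −0.11, beside 0.00378 over all genes, and it was 0.07 without Balb/c KD mouse 56, 0.01 without NSG CT mouse 3 and −0.23 with the length trend removed, when 12 members were lower at an unadjusted p under 0.05, against 6.45% of all genes. Hist1h2ba (0.52 ± 0.25 SE), Hist1h3d (0.72 ± 0.44 SE) and Hist1h2bj (0.56 ± 0.44 SE) had the smallest p among positive differences, and Hist1h2af (−0.40 ± 0.20 SE), Hist1h2an (−0.67 ± 0.35 SE) and Hist2h2aa2 (−0.48 ± 0.25 SE) among negative ones, with adjusted p from 0.495 upward.

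**Figure D3:**
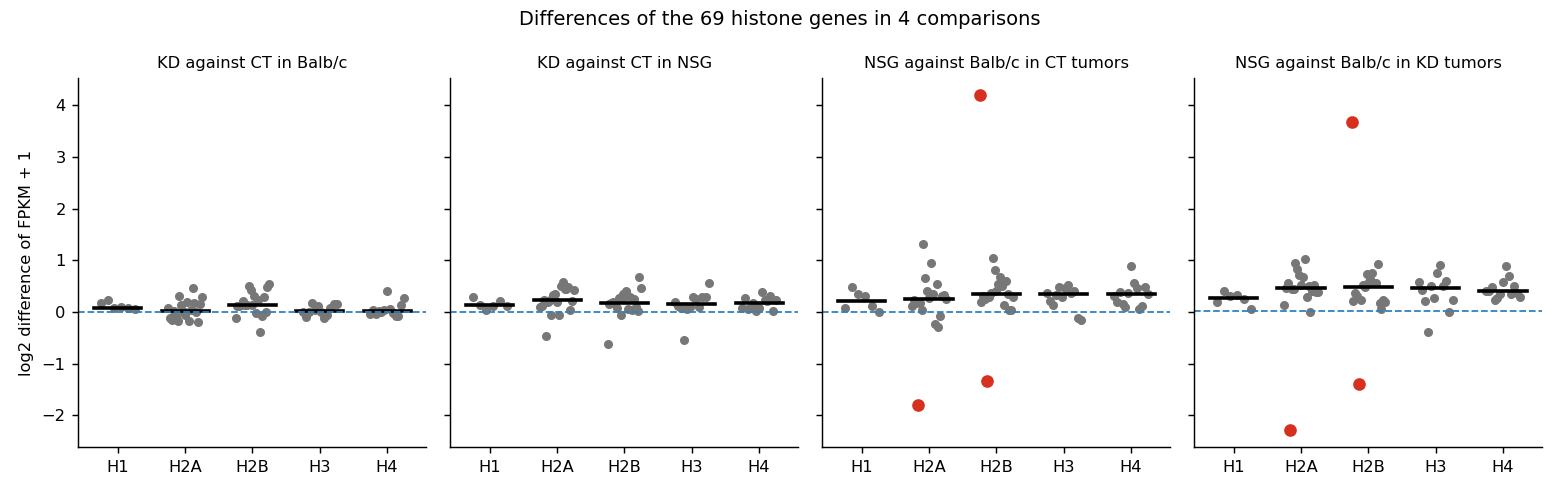
Log2 difference of FPKM + 1 (vertical axis) of each of the 69 histone genes by class in 4 comparisons, with called genes in red, the class median as a black bar and the median of all genes as a dashed line. No gene is called for the knock-down, and the same 3 genes, Hist1h2ba, Hist1h2ad and Hist1h2bf, are called between hosts with either shRNA.

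Between hosts, 3 members changed, and the same 3 with either shRNA, although the 2 host comparisons share no tumor. Hist1h2ba, the H2B of the testis, was higher in NSG tumors, and Hist1h2ad and Hist1h2bf, a head-to-head H2A and H2B pair, were lower. In CT tumors 3 of 69 members were called, where 1.43% of 14828 genes were, and in KD tumors 3 of 69, where 1.39% of 14669 genes were.

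Hist1h2ba (chr13:23933725-23934156) encodes TH2B, which replaces the usual H2B in male germ cells. Its level was 0, 0.53, 0.60 and 0.22 FPKM in Balb/c CT and 0.18, 0.23, 0.23 and 0.22 FPKM in Balb/c KD tumors. In NSG tumors it was 30.4, 23.3, 16.2, 24.3 and 23.6 FPKM with the control and 17.96, 11.9, 12.9, 18.8 and 12.8 FPKM with the Atrx shRNA. Every NSG tumor lay far above every Balb/c tumor. The log2 difference was 4.20 ± 0.20 SE in CT tumors (limma adjusted p = 6.61e-07) and 3.68 ± 0.15 SE in KD tumors (limma adjusted p = 3.25e-07). These values depend on the pseudocount of 1, and with 0.1 they were 6.08 and 5.55. By the estimated depth, the Balb/c values rest on 0 to 3.57 fragments and the NSG values on 71.5 to 126. Hist1h2aa, which encodes the testis H2A and starts 305 nt away on the other strand, overlapped between the hosts, with means of 0.32 to 0.53 FPKM in the 4 groups. Among the windows of Hist1h2ba, 33.2% occurred elsewhere. T and NK cell markers and the Y-linked genes separated the same tumors, and their part in this difference was not tested.

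Hist1h2ad (chr13:23574381-23574915), an H2A gene, was 19.8, 14.3, 19.0 and 10.9 FPKM in Balb/c CT and 9.95, 22.5, 23.8 and 11.8 FPKM in Balb/c KD tumors. In NSG tumors it was 4.08, 5.78, 2.43, 4.30 and 2.98 FPKM with the control and 3.23, 0.82, 3.30, 3.34 and 2.44 FPKM with the Atrx shRNA. The lowest Balb/c value was above the highest NSG value with either shRNA. It fell by 1.80 ± 0.23 SE on the log2 scale in CT tumors (limma adjusted p = 0.00116) and by 2.29 ± 0.32 SE in KD tumors (limma adjusted p = 0.00274).

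Hist1h2bf (chr13:23573760-23574190), an H2B gene on the other strand, was 30.2, 20.3, 23.1 and 14.2 FPKM in Balb/c CT and 17.8, 31.4, 28.6 and 23.49 FPKM in Balb/c KD tumors. In NSG tumors it was 7.40, 8.24, 5.45, 8.44 and 10.2 FPKM with the control and 10.001, 5.77, 9.82, 8.24 and 10.9 FPKM with the Atrx shRNA. Again no NSG tumor reached the lowest Balb/c tumor. It fell by 1.34 ± 0.21 SE in CT tumors (limma adjusted p = 0.00583) and by 1.40 ± 0.20 SE in KD tumors (limma adjusted p = 0.00305). Of the windows of Hist1h2ad 70.7% and of Hist1h2bf 61.3% occurred elsewhere, so their levels are uncertain.

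**Figure D4:**
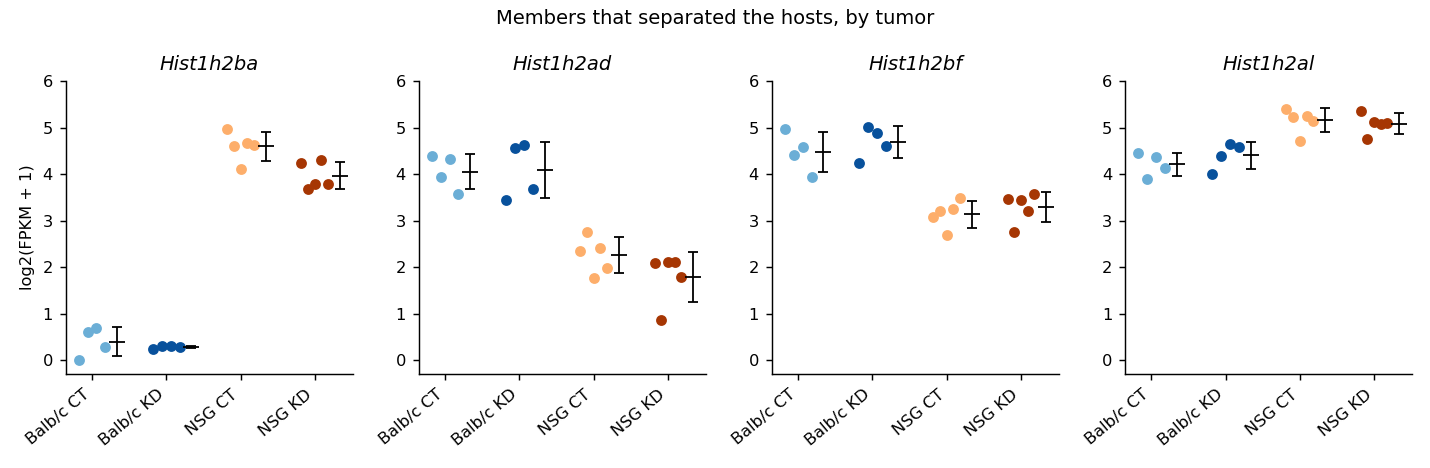
Level as log2(FPKM + 1) (vertical axis) of Hist1h2ba, Hist1h2ad, Hist1h2bf and Hist1h2al in each tumor, with 1 point per tumor and the mean ± SD beside it for the 4 groups. Hist1h2ba is below 1 in all Balb/c tumors and above 3 in all NSG tumors, while Hist1h2ad and Hist1h2bf are lower in NSG tumors with either shRNA.

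The genes beside the lowered pair were not called. Hist1h3d starts 847 nt after the end of Hist1h2ad, and its host difference was 0.33 in CT and −0.39 in KD tumors, neither called. Its level was 33.6, 28.2, 41.0 and 16.7 FPKM in Balb/c CT, 21.3, 52.2, 43.1 and 22.0 FPKM in Balb/c KD, 43.9, 50.1, 22.6, 39.6 and 30.6 FPKM in NSG CT and 38.7, 17.1, 21.2, 27.1 and 22.3 FPKM in NSG KD tumors, all groups overlapping. On the other side, Hist1h2bg differed by 0.29 and 0.23. Within 150 kb of the 2 pairs there were 12 genes that are not histones, of which 4 passed the filter on low values, and 0 of these had an adjusted p under 0.05 by limma in CT or KD tumors. In the other 12 head-to-head pairs, the partners had the same sign in both comparisons except Hist1h2bq and Hist1h2ao in CT tumors, 2 genes near 1 FPKM. Like signs say little of pairs, since 62 of all 69 members were positive in CT and 65 in KD tumors. Sizes could differ, as with 4.20 for Hist1h2ba and 0.12 for Hist1h2aa in CT tumors.

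**Figure D5:**
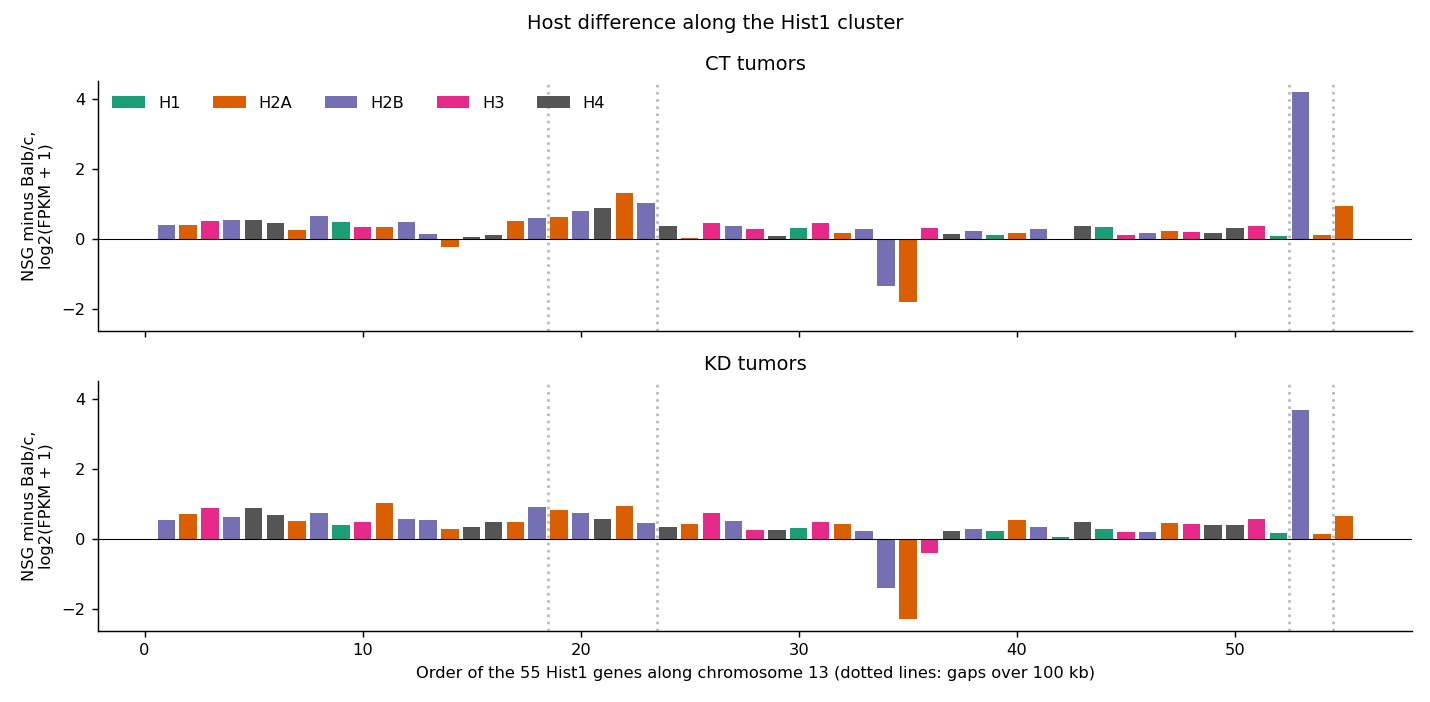
Host difference (NSG minus Balb/c, log2(FPKM + 1), vertical axis) of the 55 Hist1 genes in their order along chromosome 13 (horizontal axis), in CT tumors (top) and KD tumors (bottom), colored by class. Hist1h2bf and Hist1h2ad are neighbors and the only bars under −1, and Hist1h2ba is the only bar above 2.

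The sequences between these head-to-head genes are shown because both partners of the first pair were called between hosts and only Hist1h2ba of the second. They are from RefSeq (GRCm38.p6), with matches to 3 motifs in capitals on either strand. The motifs were CCAAT, the TATA box searched as TATAAA, and the octamer known from H2B promoters, which reads ATTTGCAT.
Hist1h2bf to Hist1h2ad, between the annotated starts (chr13:23574191-23574380, plus strand): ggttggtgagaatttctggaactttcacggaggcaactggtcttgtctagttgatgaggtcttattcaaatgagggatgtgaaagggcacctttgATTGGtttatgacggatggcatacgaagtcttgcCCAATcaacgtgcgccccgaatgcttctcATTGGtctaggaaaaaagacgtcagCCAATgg
Hist1h2ba, the 250 bases before its start, toward Hist1h2aa (chr13:23934157-23934406, minus strand): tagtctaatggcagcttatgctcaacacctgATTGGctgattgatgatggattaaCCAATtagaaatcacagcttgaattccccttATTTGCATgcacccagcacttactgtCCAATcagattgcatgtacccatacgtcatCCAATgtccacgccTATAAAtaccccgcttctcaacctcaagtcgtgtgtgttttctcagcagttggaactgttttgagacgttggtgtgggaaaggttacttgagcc
Each holds CCAAT 4 times, and the second also TATAAA once and the octamer once. The first ends at the annotated starts. A TATAAA lay within the 50 bases after the start of Hist1h2ad. The 250 bases before the start of Hist1h2bf reach the same site, where it reads TTTATA on the strand of Hist1h2bf. The octamer was found in neither window. Over windows from 250 bases before to 50 after the start, CCAAT was in 53 of the 62 members matched to a promoter (85.5%), against 37.8% of the promoters of 26963 other genes. TATAAA was in 56.5% of members against 14.1%, and the octamer in 21% against 1.71%. All 6 H1, 18 H2A, 16 H2B and 10 H3 promoters held CCAAT, but only 3 of 12 H4 promoters did (25%). The octamer was in 7 of 18 H2A and 6 of 16 H2B promoters, many of them the same head-to-head windows, and in no other class. A match is a description and shows no binding.

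Hist1h2al, which RefSeq lists as an H2A gene and GENCODE as a processed pseudogene, differed between hosts by less than the fold that a call needs. It was 20.9, 13.9, 19.6 and 16.5 FPKM in Balb/c CT and 15.0, 20.1, 24.1 and 22.8 FPKM in Balb/c KD tumors. In NSG tumors it was 41.4, 36.7, 25.4, 37.1 and 34.5 FPKM with the control and 40.3, 26.0, 33.6, 32.8 and 33.5 FPKM with the Atrx shRNA. The hosts did not overlap with either shRNA, and the difference was 0.94 ± 0.16 SE in CT (limma adjusted p = 0.00867) and 0.68 ± 0.16 SE in KD tumors (limma adjusted p = 0.0438).

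Of the other 66 members, none was called, and most had positive differences. Over all genes, 7219 of 14828 differences were positive in CT and 7756 of 14669 in KD tumors. Members varied together from tumor to tumor, so they are not separate observations. Over all 69 members, 13 were higher in CT tumors at an unadjusted p under 0.05 and 2 lower, against 7.87% of all genes higher and 11.5% lower, with a median of 0.31 beside −0.00838 over all genes. In KD tumors 26 of the 69 were higher and 2 lower, against 6.5% and 9.93% of all genes, with a median of 0.41 beside 0.0163. The 2 lower members were Hist1h2ad and Hist1h2bf in both. Without the 3 called members, 12 were higher in CT and 25 in KD tumors and 0 were lower in either, the medians were 0.31 and 0.42, and the sign was positive in both comparisons for 60 members and negative in both for 1. Class medians in KD tumors were 0.28 for H1, 0.46 for H2A, 0.48 for H2B, 0.46 for H3 and 0.40 for H4.

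These counts depended on the setting. With the trend removed, the median was 0.07 in CT and 0.28 in KD tumors, and 10 and 29 members were higher at an unadjusted p under 0.05, against 9.54% and 8.24% of all genes. The same 3 members were called, and Hist1h2ag was called as well in CT tumors. Without NSG CT mouse 3, a tumor of positive slope, 36 members were higher in CT tumors, against 13.7% of all genes, and 6 were called. With library weights 40 were higher in CT tumors, against 17.2% of all genes, and without Balb/c CT mouse 43 or 45 there were 7, against 5.16% and 5.27%. In KD tumors the count was 37 without Balb/c KD mouse 59 and 36 without NSG KD mouse 27, against 8.13% and 7.36% of all genes, and 16 without Balb/c KD mouse 56, NSG KD mouse 26 or NSG KD mouse 30, against 5.63%, 7.1% and 4.53%.

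The members of smallest p after these were Hist1h2ag in CT tumors (1.32 ± 0.32 SE, adjusted p = 0.0538 by limma) and Hist1h2an in KD tumors (1.03 ± 0.25 SE, adjusted p = 0.0504 by limma), both H2A genes with over 80% of their windows shared. Hist1h2ag was 44.3, 12.1, 31.9 and 18.5 FPKM in Balb/c CT and 71.4, 59.1, 43.6, 73.4 and 61.7 FPKM in NSG CT tumors, with overlap between mouse 41 and mouse 3. Hist1h2an was 25.5, 48.8, 74.3 and 55.5 FPKM in Balb/c KD and 112, 86.4, 98.2, 101 and 96.6 FPKM in NSG KD tumors, without overlap. After the called pair, the smallest p among negative differences was that of Hist1h2ao in CT tumors (−0.23 ± 0.19 SE) and of Hist1h3d in KD tumors (−0.39 ± 0.30 SE).

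The machinery around the histone genes was read from lists of related genes, and no gene of any of the 7 lists was called in any of the 5 comparisons. The 16 genes of histone mRNA processing and decay had a median of 0.17 for the knock-down in NSG mice, with 7 higher at an unadjusted p under 0.05 against 13.8% of all genes, and −0.00366 in Balb/c mice. Slbp, the stem-loop binding protein, was 37.0 ± 1.501 FPKM (SD, n = 5) in NSG CT and 48.7 ± 4.67 FPKM (SD, n = 5) in NSG KD tumors, a difference of 0.38 ± 0.08 SE that passed the adjusted p (0.0247 by limma) but not the fold. In Balb/c mice Slbp differed by 0.10 ± 0.14 SE, and the difference between hosts was −0.28 ± 0.15 SE (adjusted p = 0.543 by limma). Srrt, a cap-associated protein, differed by 0.17 ± 0.11 SE in NSG mice.

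The 26 genes of S phase and DNA replication had a median of 0.23 for the knock-down in NSG mice, with 12 higher and 0 lower at an unadjusted p under 0.05 against 13.8% and 12.5% of all genes, and of 0.05 in Balb/c mice with none. Between hosts in CT tumors their median was −0.16, with 9 lower and 0 higher against 11.5% and 7.87% of all genes. The histone genes had a median of 0.31 there, but of 0.07 with the length trend removed, and the list is given with the trend kept. Pcna, the sliding clamp of the polymerase, was 176 ± 45.4 FPKM (SD, n = 4) in Balb/c CT and 215 ± 43.0 FPKM (SD, n = 5) in NSG CT tumors, and Rrm2, a subunit of ribonucleotide reductase, 87.8 ± 10.99 and 87.0 ± 9.55 FPKM. The 16 genes of G2 and mitosis had medians of 0.35 for the knock-down in NSG mice (8 higher against 13.8% of all genes, 0 lower), 0.05 in Balb/c mice and −0.36 between hosts in CT tumors (0 higher, 5 lower against 11.5% of all genes). Top2a differed there by −0.54 ± 0.14 SE and Ube2c by −0.12 ± 0.15 SE. In KD tumors both lists were close to 0 between hosts (0.03 and −0.00566), with 0 genes at an unadjusted p under 0.05. The histone median there was 0.41, and 0.28 with the length trend removed.

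Chaperones and importers of histones (20 genes, Atrx included) had a median of 0.14 for the knock-down in NSG mice. There 8 were higher and 1 lower, against 13.8% and 12.5% of all genes, and the 1 lower was Atrx, the target of the shRNA. Between hosts in CT tumors the median was −0.20 (0 higher and 3 lower, against 7.87% and 11.5%). The 2 highest, Npm1 and Nap1l1, differed by 0.10 ± 0.11 and 0.22 ± 0.11 SE for the knock-down in NSG mice. The 11 replication-independent histone variants had medians of 0.02 for the knock-down in NSG and 0.11 in Balb/c mice. At an unadjusted p under 0.05, 4 were higher and 0 lower in NSG KD tumors, against 13.8% and 12.5% of all genes. In Balb/c mice 0 were higher or lower. Between hosts their medians were 0.15 and 0.21 in CT and KD tumors. There 1 and 2 were higher and 0 lower, against 7.87% and 6.5% of all genes higher. H3f3b, one of the genes for H3.3, was 317 ± 50.6 FPKM (SD, n = 4) in Balb/c CT and 331 ± 26.9 FPKM (SD, n = 4) in Balb/c KD tumors, and H2afz 293 ± 86.1 and 332 ± 109 FPKM. The 10 genes of quiescence and arrest had medians between −0.05 and 0.09, and Cdkn1a and Ccng1, targets of p53, differed by 0.47 ± 0.16 and 0.59 ± 0.22 SE between hosts in CT tumors (adjusted p = 0.151 and 0.182 by limma). The other short RNAs without a tail (67 genes, 63 to 66 tested) had medians of −0.06 and −0.07 between hosts in CT and KD tumors and −0.14 for the knock-down in NSG mice. Rny3 and Rmrp, the highest of them, differed by 0.00305 ± 0.31 and 0.40 ± 0.32 SE between hosts in CT tumors.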

How the data were processed

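The authors aligned paired reads of 75 bp to mm10 with STAR 2.6.0c and dropped PCR duplicates and reads of a quality under 20. Cufflinks 2.2.1 gave the level of each RefSeq gene. The deposited matrix holds log2(FPKM + 1), whose base of 2 was taken from the sum of FPKM times length. Replicates are tumors of different mice. Members and gene lists were chosen with earlier results of these data known. The genes described were the 3 highest of each class, the 3 of smallest p per direction and every called member in each comparison, 11 genes of particular role, the 2 highest and any called of each list, and Atrx. The Y-linked genes, and members named for stem-loops, shared windows, position or likeness to the others, were chosen after their values were seen.

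Differences were fitted in limma 3.58.1 (R 4.3.3; lmFit, eBayes with trend) on the deposited log2 scale, which has a pseudocount of 1. Genes averaging below 0.1 FPKM and 92 spike-ins were left out, with Benjamini-Hochberg adjustment over all genes tested. Each fit held only the groups compared, and all 4 for the difference between hosts. On simulated data the same steps were tested. Alternatives were a pseudocount of 0.1, median-ratio scaling, other filters, removal of a length trend, library weights, a fit of all groups, no fold threshold and leaving out each tumor. Removing the length trend as fitted without the histone genes was chosen after seeing the data. Depth was estimated from steps between low FPKM values (35.9% to 40.2% whole within 0.1, 20% by chance), so it is approximate, and whole reads were not recovered. Python 3.11.15 read the files.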

Additional observations from a re-analysis of the deposited data

Results flagged for a closer look

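Within groups of 4 or 5 tumors, the highest or lowest value was compared with the range of its group (Dixon's criterion at 95%) in 168 groups of values, and 6 stood apart, where chance gives about 8.4. All 6 were low values in tumors with a positive length slope. Hist1h1e was 439.4 FPKM in Balb/c CT mouse 43, against 613.8 to 621.1 FPKM in the other 3 tumors. In NSG CT mouse 3, Hist1h3e was 465.5 FPKM (725.3 to 809.3 in the other 4) and Hist1h4d 700.3 FPKM (932.0 to 1014.5). In NSG KD mouse 27, Hist1h4d was 805.2 FPKM (960.5 to 1014.5), the summed H2A genes 2184.6 FPKM (2890.6 to 3156.9) and the summed H2B genes 3506.6 FPKM (4695.1 to 5052.1). The part of the slope in these values was not tested. No member passed the test of a difference between hosts in the response to the knock-down (limma, lowest adjusted p 0.495).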

How the results depend on the processing

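Hist1h2ba, Hist1h2ad and Hist1h2bf were called between hosts in all 10 settings with every tumor and in all 9 fits without 1 tumor, with either shRNA. The number of members called between hosts ran from 3 to 6 without 1 tumor in CT tumors (5 without Balb/c CT mouse 41 or 44, 6 without NSG CT mouse 3) and from 3 to 6 in KD tumors (6 without Balb/c KD mouse 59). No member was called for the knock-down within a host in any setting. In NSG mice, members such as Hist1h2ba, Hist1h3d and Hist1h2af passed the adjusted p in some settings but not the fold. Their lowest adjusted p by limma with every tumor were 0.00166, 0.00850 and 0.0226. With library weights 2 members, Hist1h2ba and Hist1h3d, were called for the difference of the knock-down between hosts, where the reported count was 0, but 1985 of all genes were called then. Other counts of called members stayed within 1.5 times the reported ones. Medians moved by less than the spread between tumors (0.305, SD), which is as large as most of them, and fell from 0.31 to 0.07 between hosts in CT tumors with the length trend removed. Members higher at an unadjusted p under 0.05 moved further, from 1 to between 0 and 4 and from 7 to between 2 and 36 for the knock-down in Balb/c and NSG mice, from 13 to between 7 and 40 and from 26 to between 16 and 37 between hosts in CT and KD tumors. Medians without 1 tumor ran from −0.06 to 0.27 (below 0 without mouse 43, 58 or 59) and from 0.05 to 0.29 for the knock-down in Balb/c and NSG mice, from −0.21 to 0.07 for its difference (above 0 without mouse 56 or 3, and with library weights), and from 0.20 to 0.44 and from 0.25 to 0.54 between hosts in CT and KD tumors. With every tumor, Hist1h2ag was called in 4 of 10 settings in CT tumors, Hist1h2an in 3 of 10 in KD tumors, and Hist1h2al in 1 of 10 in each. The cause of these changes was not tested. No paired analysis was possible because mouse numbers are not shared between groups. Near-identical copies and the approximate depth limit what can be said of members under 25 FPKM.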
